A study of Homo sapiens with 6 samples.

Results

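Small leucine-rich proteoglycans were examined as a group of 8 genes, DCN, LUM, FMOD, OGN, ASPN, PRELP, OMD and PODN, out of 23355 genes with a symbol in the RNA-sequencing count table. Each gene was found in the table by its symbol. HFL-1, an established line of fibroblasts from human fetal lung, had been transfected with siRNA by Lipofectamine RNAiMAX, and total RNA was taken 48 h later. All 3 groups received an siRNA, which was a non-targeting control in siNTC and one of 2 Stealth siRNAs against TAZ in siTAZ #1 and siTAZ #2. Each group had 2 libraries, called biological replicates in the design text, and p-values measure only the spread between such libraries of 1 cell line.

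Small leucine-rich proteoglycans are secreted proteins built around a curved array of leucine-rich repeats, and most of them carry chondroitin, dermatan or keratan sulfate chains or sulfated tyrosines. They coat collagen fibrils and set their spacing and thickness, and several of them also bind growth factors or their receptors. Decorin (DCN) and asporin (ASPN) belong to class I with biglycan (BGN). Lumican (LUM), fibromodulin (FMOD), PRELP and osteomodulin (OMD) belong to class II with keratocan (KERA). Osteoglycin (OGN) is of class III with epiphycan (EPYC) and opticin (OPTC), and podocan (PODN) is of class V with podocan-like 1 (PODNL1). In lung, decorin and lumican are made by fibroblasts and are part of the interstitial matrix.

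The unit of level is TMM-normalized CPM, in which a gene's count is divided by the scaled total of its library. Log2 fold changes and FDR values come from the quasi-likelihood test of edgeR, fitted to all 6 libraries together and adjusted by the Benjamini-Hochberg method over the 14053 genes that passed its filter on low counts. A gene was called at an FDR under 0.05. The comparisons of siTAZ #1 and siTAZ #2 with siNTC share the same 2 control libraries.

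TAZ, whose gene symbol is WWTR1, was checked first. WWTR1 stood at 132 and 131 CPM in the siNTC libraries, at 26.4 and 28.4 with siTAZ #1, and at 46.1 and 43.1 with siTAZ #2. Both siRNAs lowered it in every library, by a log2 fold change of -2.26 (SE 0.10, FDR 0.00062) and -1.56 (SE 0.10, FDR 0.00068), and siTAZ #1 left less of it than siTAZ #2 did (log2 difference -0.70, SE 0.10, FDR 0.005). Library totals ran from 15648055 to 32078188 counts. In replicate 2 of siTAZ #1 the genes from RANGAP1 on chromosome 22 to the end of Y held 0.246% of the counts against 3.58% to 3.74% in the other libraries. No member lies in that region, but the family genes BGN and NYX, the enzyme gene CHST7 and the marker TNMD do. Fibroblast markers summed to 42300 CPM in siNTC, 31100 to 33300 with siTAZ #1 and 33100 to 34900 with siTAZ #2, and all 10 were above 1 CPM in at least 1 library. The sum rests mostly on COL1A1, COL1A2, FN1, COL3A1 and VIM, and the markers did not move as 1. With siTAZ #1, 2 were lower (COL1A1 and COL1A2) and 3 higher (PDGFRA, PDGFRB and TCF21), with PDGFRA at a mean of 424 CPM in siNTC and 1400 with siTAZ #1. With siTAZ #2, 5 were lower and 2 (PDGFRB and THY1) higher. Markers of other cell types were low or rested on 1 or a few genes. Of 8 epithelial, 6 endothelial and 6 immune markers, 5, 4 and 5 stayed below 1 CPM in all libraries, and their sums lay at 7.07 to 9.87, 26.8 to 47.4 and 38.3 to 75.8 CPM. The endothelial and immune sums were lowest with siTAZ #2, at 26.8 to 31.3 and 38.3 to 49.0 CPM, where TEK and CD68 made up most of them. The cartilage and tendon sum (4 of 5 markers in the table, TNMD near 0) was 33.8 to 38.7 CPM in siNTC, 78.7 to 98.9 with siTAZ #1 and 36.6 to 53.2 with siTAZ #2. SOX9 made up most of it, with means of 26.9, 76.5 and 30.8 CPM in the same order. The smooth muscle and pericyte sum of 5 markers was 226 to 238, 258 to 283 and 312 to 340 CPM in that order. It rested mostly on MCAM, with means of 180, 223 and 281 CPM. MCAM (log2 fold change 0.64, edgeR FDR 0.0088) and DES (0.99, FDR 0.039) were called higher with siTAZ #2 alone. CNN1 was lower with both siRNAs (-0.48, FDR 0.04, and -0.62, FDR 0.014), and MYH11 and RGS5 were not called. The part of these shifts in the values below was not tested, and in bulk RNA fewer cells of a type and less RNA per cell cannot be told apart.

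DCN and LUM, the most abundant members, fell with both siRNAs, and more so with siTAZ #2. PODN, at a far lower level, rose with siTAZ #2. FMOD was too sparse for its values to pass the test, and PRELP, ASPN, OGN and OMD lay at or near the detection limit. Of the 8 members, 4 passed the filter on low counts (DCN, LUM, FMOD and PODN). With siTAZ #1, 2 members were lower and 0 higher, where 9.78% and 10.8% of all genes tested were called in these directions. With siTAZ #2, 2 members were lower and 1 higher, against 14.4% and 14.1% of all genes. The median log2 fold change of the 4 tested members was -0.60 with siTAZ #1 and -1.76 with siTAZ #2, beside 0.02 and 0.01 over all genes tested.

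**Figure D1:**
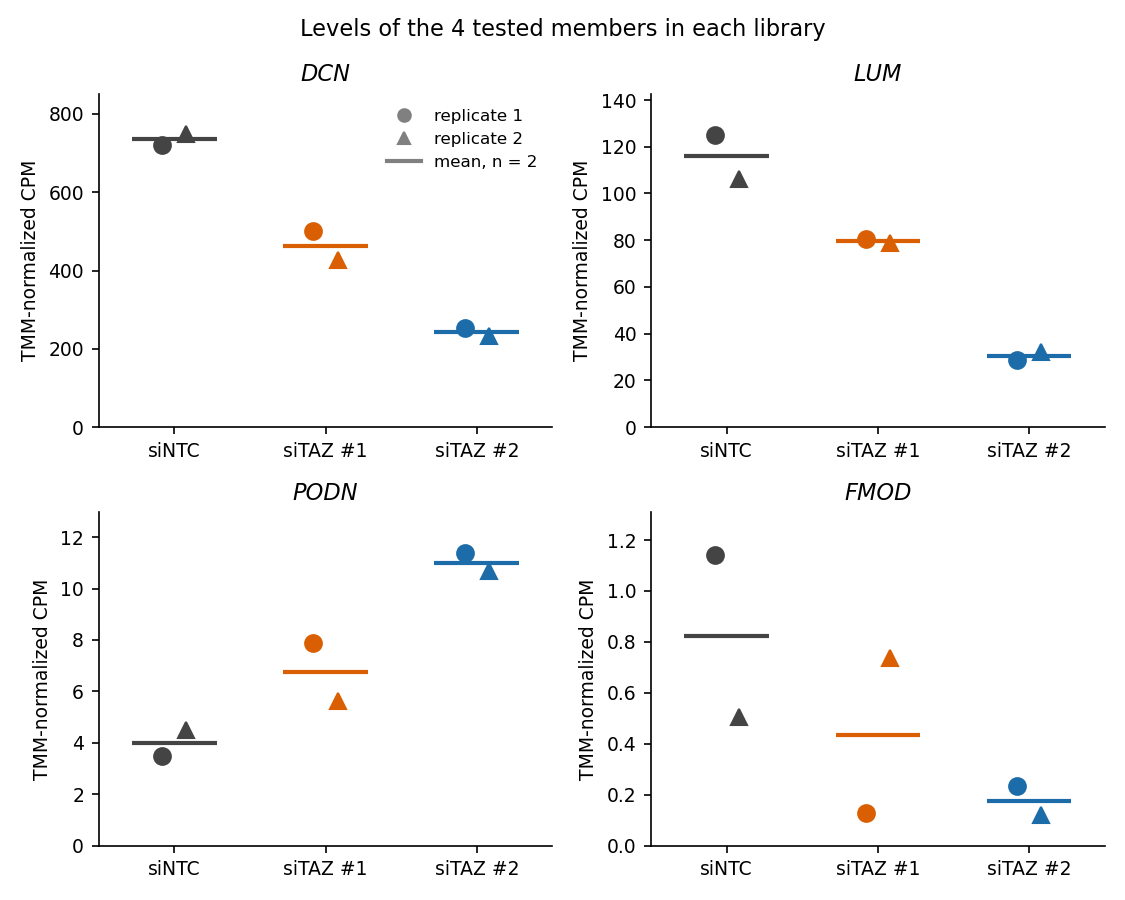
Levels of DCN, LUM, PODN and FMOD in TMM-normalized CPM (y axis, from 0) in each library of siNTC, siTAZ #1 and siTAZ #2 (x axis). Symbols are libraries and bars are means of 2. The DCN levels step from 720 and 749 CPM in siNTC down to 254 and 233 with siTAZ #2, PODN levels step up from 3.49 and 4.48 to 11.4 and 10.7, and the FMOD libraries of a group lie far apart.

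DCN encodes decorin, which binds collagen fibrils and TGF-β and carries a single chondroitin or dermatan sulfate chain. The gene spans chr12:91534261-91576994 on the minus strand of GRCh37. DCN was counted 11363 and 11875 times in the siNTC libraries, 7773 and 13898 times with siTAZ #1, and 5442 and 3850 times with siTAZ #2. After scaling, the levels were 720 and 749 CPM in siNTC, 501 and 426 with siTAZ #1, and 254 and 233 with siTAZ #2. The 3 groups did not overlap, with siNTC highest and siTAZ #2 lowest, although the deepest library of siTAZ #1 had the highest raw count. Group means were 735 ± 20.5, 464 ± 53.2 and 243 ± 15.4 CPM (SD, n = 2). DCN was 1.58-fold lower with siTAZ #1 (log2 fold change -0.66, SE 0.11, 95% interval -0.92 to -0.40, edgeR FDR 0.01). It was 3.02-fold lower with siTAZ #2 (log2 fold change -1.59, SE 0.11, 95% interval -1.86 to -1.33, edgeR FDR 0.00072). With siTAZ #1, DCN missed the threshold without siNTC replicate 1 (-0.70, edgeR FDR 0.081), without siNTC replicate 2 (-0.64, FDR 0.092) and with edgeR's exact test on 4 libraries (-0.68, FDR 0.17). In these settings the share of all genes called lower with siTAZ #1 also dropped, from 9.78% to 2.06%, 1.89% and 3.59%.

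LUM encodes lumican, a keratan sulfate proteoglycan that limits the thickness of collagen fibrils. It lies next to DCN, at chr12:91496406-91505271 on the same strand, with 28990 bases between the 2 genes. LUM was counted 1977 and 1685 times in siNTC, 1247 and 2573 times with siTAZ #1, and 618 and 532 times with siTAZ #2. Its levels were 125 and 106 CPM in siNTC, 80.5 and 78.9 with siTAZ #1, and 28.9 and 32.1 with siTAZ #2. Again siNTC was highest and siTAZ #2 lowest in every library, with no overlap. Group means were 116 ± 13.4, 79.7 ± 1.09 and 30.5 ± 2.29 CPM (SD, n = 2). LUM was 1.45-fold lower with siTAZ #1 (log2 fold change -0.54, SE 0.12, 95% interval -0.83 to -0.25, edgeR FDR 0.027). With siTAZ #2 it was 3.80-fold lower (log2 fold change -1.92, SE 0.12, 95% interval -2.22 to -1.63, edgeR FDR 0.00066). The siTAZ #1 call was lost without siNTC replicate 1 (-0.43, edgeR FDR 0.17), without siNTC replicate 2 (-0.66, FDR 0.075) and with the exact test (-0.55, FDR 0.31). An offset for GC content, which is 34.9% in LUM, moved its log2 fold change with siTAZ #1 to -0.85 (edgeR FDR 0.026).

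The siRNAs were also compared with each other. With siTAZ #1 minus siTAZ #2, 2 members were higher and 0 lower, where 15.2% and 13.4% of all genes tested were called. DCN was 1.91-fold higher with siTAZ #1 (log2 difference 0.93, SE 0.11, 95% interval 0.67 to 1.19, edgeR FDR 0.0027), and LUM was 2.61-fold higher (1.39, SE 0.12, 95% interval 1.09 to 1.68, edgeR FDR 0.0013). The order of the groups was thus siNTC, siTAZ #1, siTAZ #2 for both genes, with each step past the threshold. WWTR1 itself had the order siNTC, siTAZ #2, siTAZ #1. DCN and LUM kept their calls with siTAZ #2 against siNTC and between the siRNAs under all 22 alternatives tried.

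Counted without a model, 2 members (DCN and LUM) had all 4 siTAZ libraries below both siNTC libraries, as 17.5% of all genes tested did. For 1 member (PODN) all 4 lay above both, as for 18.6% of all genes. Exact permutation of 2 against 2 libraries cannot give a p under 0.33, and of 4 against 2 none under 0.067, so that no such test was run on single genes.

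PODN encodes podocan, a secreted leucine-rich protein known from smooth muscle cells, where it restrains proliferation. The gene spans chr1:53527724-53551173 on the plus strand of GRCh37. PODN was counted 55 and 71 times in siNTC, 122 and 183 times with siTAZ #1, and 243 and 177 times with siTAZ #2. Its levels were 3.49 and 4.48 CPM in siNTC, 7.87 and 5.61 with siTAZ #1, and 11.4 and 10.7 with siTAZ #2. No group overlapped another, in the order opposite to that of DCN and LUM. Group means were 3.98 ± 0.703, 6.74 ± 1.60 and 11 ± 0.472 CPM (SD, n = 2). PODN was 2.77-fold higher with siTAZ #2 (log2 fold change 1.47, SE 0.26, 95% interval 0.83 to 2.11, edgeR FDR 0.011). With siTAZ #1 the log2 fold change was 0.75 (SE 0.26, 95% interval 0.11 to 1.39, unadjusted), which missed the threshold at an edgeR FDR of 0.096. The difference between the siRNAs was -0.72 (SE 0.25, edgeR FDR 0.086). Leaving out any 1 of the 4 libraries of siNTC and siTAZ #2 took the siTAZ #2 call over the threshold, with values of 1.28 to 1.64 and FDR values of 0.055 to 0.083. The share of all genes called higher with siTAZ #2 was then 4.2% to 6.49%, down from 14.1%. Without siTAZ #1 replicate 2, PODN was called higher with siTAZ #1 (0.98, FDR 0.03), and without siTAZ #1 replicate 1 it was called lower with siTAZ #1 than with siTAZ #2 (-0.97, FDR 0.02). A long non-coding RNA (ENSG00000232993) and a pseudogene (HIGD1AP11) on the opposite strand cover 9.51% and 5.72% of the exon bases of PODN. The strand setting of the counting is not given in the sources used here, so reads from these genes cannot be told apart from PODN reads.

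TAZ binds DNA through TEAD factors, often near AP-1 sites, so the stretch around the start of each gene was searched for the TEAD core GGAATG and the AP-1 motif TGANTCA on both strands. RefSeq promoter sequences on GRCh38.p14, from 250 bases before to 50 bases after the start, were matched for 5 of the 8 members (FMOD, OGN, ASPN, PRELP and PODN). DCN, LUM and OMD had no entry. GGAATG was found in 14% and TGANTCA in 7.71% of the 35116 promoters of the table. Of these 5 members, PRELP alone held a TEAD core, which occurred 2 times, and TGANTCA occurred in 0 of them. The 250 bases before the start are shown for PODN, the member that rose, and for PRELP, the member with matches. They lie at chr1:53061963-53062212 and chr1:203475556-203475805 of GRCh38.p14, both on the plus strand, and capitals mark GGAATG or its reverse complement.
PODN: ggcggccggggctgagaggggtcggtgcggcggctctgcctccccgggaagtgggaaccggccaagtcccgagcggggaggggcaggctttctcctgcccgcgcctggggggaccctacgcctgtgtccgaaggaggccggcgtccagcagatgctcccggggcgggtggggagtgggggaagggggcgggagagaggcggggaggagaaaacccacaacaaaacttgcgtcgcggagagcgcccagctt
PRELP: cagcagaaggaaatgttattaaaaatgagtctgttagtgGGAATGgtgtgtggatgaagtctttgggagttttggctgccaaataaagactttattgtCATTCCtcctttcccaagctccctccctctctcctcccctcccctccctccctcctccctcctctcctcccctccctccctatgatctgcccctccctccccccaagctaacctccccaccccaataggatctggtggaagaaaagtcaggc
The PODN promoter was rich in G and C (71.7% of the full stretch, with 27 CpG), while that of PRELP had 52.7% and 1 CpG. A match is a run of letters and no site was measured here. Sequence farther from the start was not searched, so the lack of a match says nothing about sites elsewhere.

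FMOD encodes fibromodulin, a keratan sulfate proteoglycan of tendon and other dense connective tissue that guides collagen fibril assembly. It lies at chr1:203309756-203320886 on the minus strand of GRCh37. FMOD had 18 and 8 counts in siNTC, 2 and 24 with siTAZ #1, and 5 and 2 with siTAZ #2. In CPM these were 1.14 and 0.505, 0.129 and 0.736, and 0.234 and 0.121. The siTAZ #1 libraries lay on both sides of the lower siNTC library, and those of siTAZ #2 lay below both. Its fitted log2 fold change was -0.79 with siTAZ #1 (SE 0.87, 95% interval -2.91 to 1.34, edgeR FDR 0.56) and -2.14 with siTAZ #2 (SE 1.00, 95% interval -4.59 to 0.31, edgeR FDR 0.16). FMOD had the largest fitted change of the members and the widest interval, and at this depth a difference was not detectable. Between the siRNAs its difference was 1.35 (SE 1.00, edgeR FDR 0.37), which turned to -0.47 without siTAZ #1 replicate 2.

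The other 4 members did not pass the filter and were not tested. PRELP, which anchors basement membranes to collagen, had 5 and 8 counts in siNTC, 5 and 18 with siTAZ #1, and 10 and 10 with siTAZ #2. Summed over a group, its level was 0.411 CPM in siNTC (95% Poisson interval 0.219 to 0.703), 0.478 with siTAZ #1 (0.303 to 0.717) and 0.527 with siTAZ #2 (0.322 to 0.814). These intervals overlap and cover counting error only. ASPN, whose product asporin binds collagen and TGF-β, had 0 and 2 counts in siNTC, 0 and 3 with siTAZ #1, and 0 and 4 with siTAZ #2. OGN, for osteoglycin, had 1 count in a single library of each group. OMD, for osteomodulin of bone matrix, had 0 counts in all libraries of siNTC and siTAZ #2, and 2 and 5 counts with siTAZ #1. A count of 0 over a group allows up to 0.0949 CPM in siNTC and 0.0791 with siTAZ #2 (3 counts), and the group level of OMD with siTAZ #1 was 0.146 CPM (95% Poisson interval 0.0585 to 0.3). The order of these 4 genes between groups could not be read at this depth.

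Per length of the canonical GENCODE 44 transcript, the level in siNTC was 107 CPM per kb for DCN, 43.4 for LUM, 1.33 for PODN, 0.28 for FMOD and 0.0712 for PRELP. ASPN, OGN and OMD stood at 0.0255, 0.0093 and 0 CPM per kb. By this level DCN ranked 610 and LUM 1694 among 19840 genes with a length, and PODN ranked 10885. With siTAZ #2 the levels per kb were 35.5 for DCN, 11.4 for LUM and 3.67 for PODN, so that the distance from LUM to PODN had shrunk while the order had not changed. The canonical DCN transcript, of 6.85 kb, is the longest of its 18 coding transcripts, and its coding part takes up 1.08 kb. Against BGN the order of DCN therefore depends on the length used. In siNTC, BGN had 137 CPM per kb of transcript, above the 107 of DCN, but 293 CPM per kb of coding sequence, below the 682 of DCN.

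**Figure D2:**
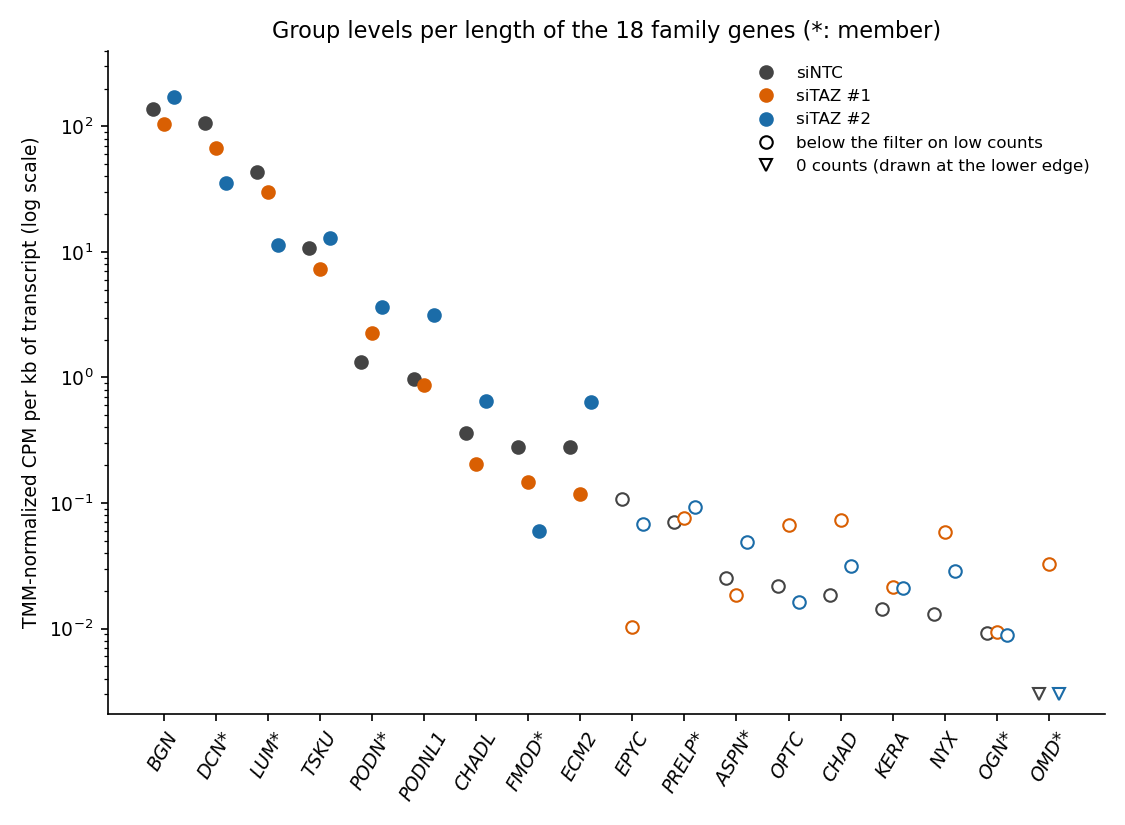
Mean level of 18 family genes in TMM-normalized CPM per kb of canonical transcript (y axis, log scale), ordered by the siNTC level, for the 3 groups. Asterisks mark members and open symbols mark genes below the filter. BGN with siTAZ #1 is drawn from replicate 1 alone. DCN and LUM, with PODN far below them, are the members that stand clear of the filter on low counts.

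The 8 members together made up 851 and 861 CPM in siNTC, 590 and 512 with siTAZ #1, and 295 and 276 with siTAZ #2. DCN supplied most of this in every library, with 83.2% to 87% of the members' counts. The makeup within the group was not the same in all groups. DCN exceeded LUM by a ratio of counts of 5.75 and 7.05 in siNTC, 6.23 and 5.4 with siTAZ #1, and 8.81 and 7.24 with siTAZ #2, so both siTAZ #2 libraries lay above the other 4. PODN counts came to 0.484% and 0.598% of DCN counts in siNTC, 1.57% and 1.32% with siTAZ #1, and 4.47% and 4.60% with siTAZ #2. These shares did not overlap between groups. Ratios within a library do not depend on scaling, and they were not tested.

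**Figure D3:**
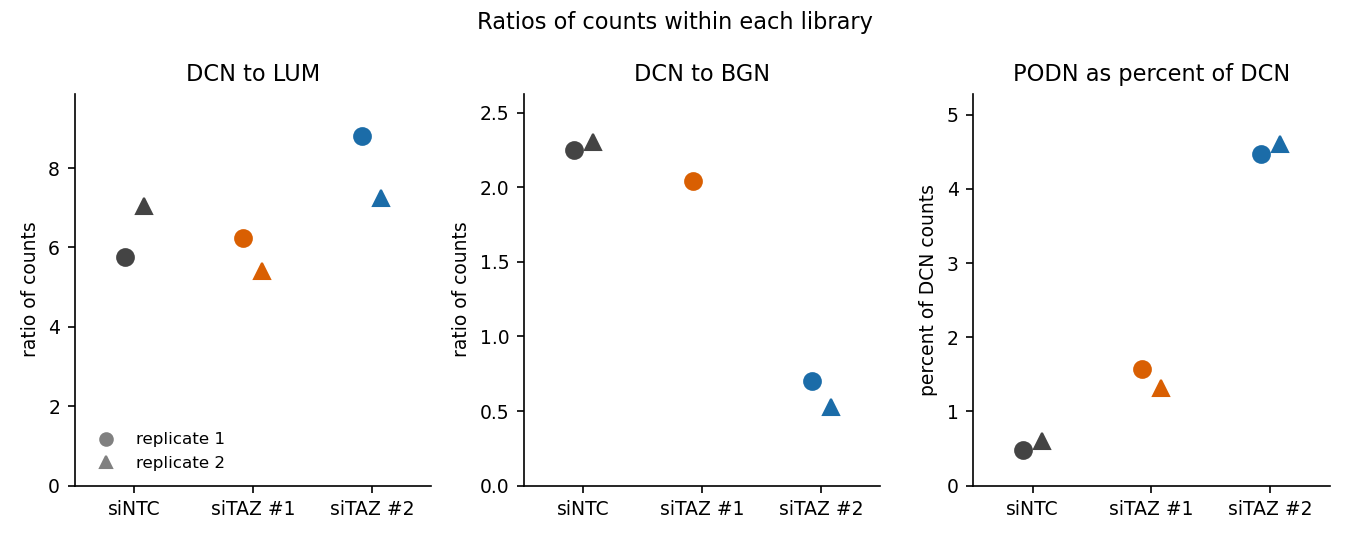
Ratios of counts within each library (points) for siNTC, siTAZ #1 and siTAZ #2 (x axis), from 0. The panels show DCN to LUM, DCN to BGN and PODN as percent of DCN. The DCN to BGN ratio leaves out siTAZ #1 replicate 2, where BGN counts are nearly missing. It falls from 2.25 and 2.30 in siNTC to 0.699 and 0.529 with siTAZ #2, while PODN climbs to 4.47% and 4.60% of DCN.

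Of 10 other genes of the wider family, 5 passed the filter (BGN, TSKU, PODNL1, ECM2 and CHADL). With siTAZ #1, 1 of them was lower and 0 higher, where 9.78% and 10.8% of all genes tested were called. With siTAZ #2, 0 were lower and 1 higher, against 14.4% and 14.1% of all genes. Without siTAZ #1 replicate 2 these counts were 2 and 0, and 0 and 2. In that fit the calls over all 14605 genes tested were 11.1% lower and 11.7% higher with siTAZ #1, and 20.6% lower and 20.8% higher with siTAZ #2. BGN, for biglycan, the closest relative of decorin, had 321 and 326 CPM in siNTC, 246 and 1.29 with siTAZ #1, and 364 and 440 with siTAZ #2. The level of 1.29 belongs to the library with nearly missing counts on X, and with it in the fit no comparison of BGN passed the test. Without that library, BGN was lower with siTAZ #1 (log2 fold change -0.40, SE 0.12, edgeR FDR 0.018) and higher with siTAZ #2 (0.31, SE 0.09, FDR 0.012). Both values come from the same fit, in which siTAZ #1 had a single library, which is assumed to vary like the others. DCN exceeded BGN by a ratio of counts of 2.25 and 2.30 in siNTC and 2.04 in replicate 1 of siTAZ #1. With siTAZ #2 the ratio was 0.699 and 0.529, with BGN above DCN.

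PODNL1, the class V relative of PODN, had 2.22 and 2.65 CPM in siNTC, 2.77 and 1.63 with siTAZ #1, and 9.26 and 6.64 with siTAZ #2. It rose with siTAZ #2 (log2 fold change 1.71, SE 0.36, edgeR FDR 0.018) and was not called with siTAZ #1 (-0.17, SE 0.36, FDR 0.77). The call with siTAZ #2 was lost with a GC offset (1.18, FDR 0.059) and without any 1 of the siNTC and siTAZ #2 libraries (1.44 to 1.90, FDR 0.054 to 0.12). TSKU, for tsukushi, a secreted leucine-rich protein that binds signalling factors, had 27.6 and 28.3 CPM in siNTC, 18.8 and 19.1 with siTAZ #1, and 30.5 and 35.8 with siTAZ #2. It fell with siTAZ #1 (-0.56, SE 0.13, edgeR FDR 0.036), which did not hold without siNTC replicate 1 (-0.59, FDR 0.15), siNTC replicate 2 (-0.55, FDR 0.17) or either siTAZ #2 library (-0.56 and -0.58, FDR 0.055 and 0.054). With siTAZ #2 TSKU was at 0.24 (SE 0.13, FDR 0.23). Between the siRNAs, TSKU was lower with siTAZ #1 (-0.81, SE 0.13, FDR 0.0087), as was PODNL1 (-1.88, SE 0.36, FDR 0.013). In that comparison TSKU lost its call without siTAZ #2 replicate 2 (-0.68, FDR 0.059) and PODNL1 without siTAZ #2 replicate 1 (-1.61, FDR 0.074).

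ECM2, a matrix protein gene next to ASPN, had 1.20 and 0.568 CPM in siNTC, 0.194 and 0.552 with siTAZ #1, and 2.15 and 1.93 with siTAZ #2. It was not called against siNTC with siTAZ #1 (-1.13, SE 0.65, edgeR FDR 0.27) or siTAZ #2 (1.20, SE 0.60, FDR 0.19). Between the siRNAs it was lower with siTAZ #1 (-2.33, SE 0.63, FDR 0.039), a call that was lost on leaving out any library other than siTAZ #1 replicate 2 (-2.41 to -1.87, FDR 0.061 to 0.14). CHADL, which binds collagen in cartilage, had 0.258 to 2.05 CPM over the 6 libraries and was not called in any comparison (edgeR FDR 0.13 to 0.48). KERA, EPYC, OPTC, CHAD and NYX did not pass the filter, with at most 6 counts in a group.

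**Figure D4:**
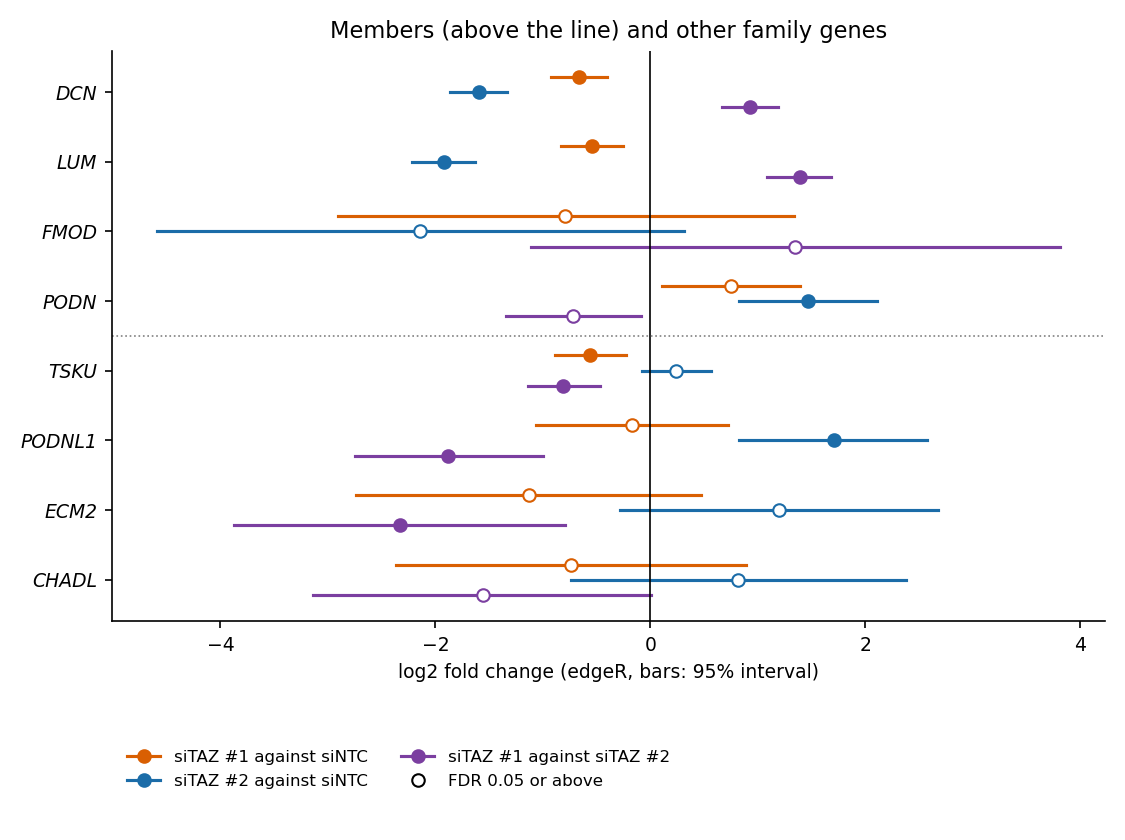
Log2 fold changes (x axis) with 95% intervals of the 4 tested members and of 4 other family genes (y axis) in 3 comparisons. Filled symbols have an edgeR FDR under 0.05. DCN and LUM lie left of 0 with both siRNAs, at -0.66 and -0.54 with siTAZ #1 and at -1.59 and -1.92 with siTAZ #2, while PODN and PODNL1 lie right of 0 with siTAZ #2.

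Members of the family lie in clusters on the genome, and neighbours differed in level. KERA, the coding gene before LUM on chromosome 12 at a distance of 44605 bases, had 1, 2 and 2 counts in the 3 groups, beside the far higher counts of LUM and DCN. FMOD and PRELP are neighbours on chromosome 1 with 124048 bases between them, and OPTC follows PRELP after 2801 bases. On chromosome 9, OGN, OMD, ASPN and ECM2 stand in a row, and all 4 lie within the span of CENPP on its opposite strand, without a shared exon base. CENPP, which encodes a centromere protein, had 2.05 to 4.72 CPM and was not called (log2 fold change 0.51 with siTAZ #1, edgeR FDR 0.40, and -0.07 with siTAZ #2, FDR 0.92). PODN lies apart from other members, between SCP2 and SLC1A7.

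The glycosaminoglycan chains of these proteoglycans start with a linker that is built on a serine. Of 6 linker enzymes tested, 1 was lower and 2 higher with siTAZ #1, and with siTAZ #2 the counts were also 1 and 2. Without the genes of the region with missing counts, 2 were lower and 2 higher with siTAZ #1, and 1 and 3 with siTAZ #2. Over all genes tested, 9.78% were lower and 10.8% higher with siTAZ #1, and 14.4% and 14.1% with siTAZ #2. Without the genes of that region these shares were 14.8%, 15.7%, 19.2% and 19.5%. Of 15 enzymes that build and modify chondroitin and dermatan sulfate, 3 were lower and 4 higher with siTAZ #1 and 2 lower and 7 higher with siTAZ #2, with median log2 fold changes of 0.23 and 0.65. Among these enzymes, CHST7 lies in the region with missing counts. It had 3.80 and 4.23 CPM in siNTC and 0.0307 in siTAZ #1 replicate 2. Its log2 fold change with siTAZ #1 (-3.48, SE 1.00, edgeR FDR 0.06) enters the median. Without the genes of that region, 5 enzymes were lower and 5 higher with siTAZ #1, and 2 lower and 9 higher with siTAZ #2. Over all genes the higher calls with siTAZ #2 then went from 14.1% to 19.5%. CSGALNACT2, which adds the first chain sugar, rose with both siRNAs (log2 fold change 0.73, SE 0.12, edgeR FDR 0.011, and 2.85, SE 0.12, FDR 0.00037). Its level was 14.5 and 16.7 CPM in siNTC, 25.5 and 26.1 with siTAZ #1, and 111 and 113 with siTAZ #2, with no overlap. CSGALNACT1, of the same activity, rose with siTAZ #2 (1.14, SE 0.16, FDR 0.005), as did the dermatan sulfotransferase CHST14 (1.07, SE 0.17, FDR 0.0079). DSEL, a dermatan sulfate epimerase-like gene, fell with both siRNAs (-0.49, SE 0.08, FDR 0.0093, and -1.22, SE 0.08, FDR 0.00064). The chain polymerase gene CHSY3, with a mean of 3.23 CPM in siNTC, rose with siTAZ #1 (1.39, SE 0.32, FDR 0.032). With siTAZ #2 it was at 1.03 (SE 0.32, FDR 0.06). CHSY1, another chain polymerase gene, had a mean of 171 CPM in siNTC. It fell with both siRNAs (-0.95, SE 0.07, FDR 0.0013, and -0.68, SE 0.07, FDR 0.0022).

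With 1 control library left out, fewer genes were called overall. With siTAZ #1 the calls over all genes were 2.06% lower and 1.94% higher without siNTC replicate 1, and 1.89% and 1.91% without siNTC replicate 2. The siTAZ #1 calls of CSGALNACT2 (0.62 and 0.82, edgeR FDR 0.088 and 0.058), DSEL (-0.46 and -0.54, FDR 0.089 and 0.067) and CHSY3 (1.56 and 1.22, FDR 0.12 and 0.18) were lost without siNTC replicate 1 and without siNTC replicate 2. With siTAZ #2, CSGALNACT1 was lost without siNTC replicate 2 (1.07, FDR 0.052), and CHST14 without siNTC replicate 2 (0.91, FDR 0.072) or siTAZ #2 replicate 2 (0.98, FDR 0.058). CHST14 was called with siTAZ #1, and CHSY3 with siTAZ #2, once siTAZ #1 replicate 2 was left out (0.76, FDR 0.0013, and 1.03, FDR 0.016).

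Keratan sulfate or sulfated tyrosines occur on the products of LUM, FMOD, OMD and OGN. Of 8 tested genes for their synthesis, 1 was lower and 2 higher with siTAZ #1 and 1 lower and 0 higher with siTAZ #2, with medians of 0.47 and -0.27. All genes tested were at 9.78% lower and 10.8% higher with siTAZ #1, and 14.4% and 14.1% with siTAZ #2. Without the genes of the region with missing counts, 1 was lower and 5 higher with siTAZ #1, where 14.8% and 15.7% of all genes were. With siTAZ #2, 1 was lower and 0 higher in that fit, against 19.2% and 19.5% of all genes. CHST2, a sulfotransferase for N-acetylglucosamine, had 10.7 and 10.5 CPM in siNTC, 23.4 and 20.2 with siTAZ #1, and 8.83 and 8.15 with siTAZ #2. It rose with siTAZ #1 (log2 fold change 1.04, SE 0.17, edgeR FDR 0.011) and was not called with siTAZ #2 (-0.32, SE 0.17, FDR 0.22). The siTAZ #1 call of CHST2 was lost without siNTC replicate 1 (1.05, FDR 0.089) and without siNTC replicate 2 (1.01, FDR 0.092). The siRNAs differed on CHST2 by 1.36 (SE 0.17, FDR 0.0037).

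Collagens are the main ligands of the family. Of 10 collagen genes tested, 5 were lower and 2 higher with siTAZ #1, and 4 lower and 4 higher with siTAZ #2, with median log2 fold changes of -0.53 and 0.21. Over all genes tested, 9.78% were lower and 10.8% higher with siTAZ #1, and 14.4% and 14.1% with siTAZ #2. Without the genes of the region with missing counts, 6 collagen genes were lower and 2 higher with siTAZ #1. With siTAZ #2, 4 were lower and 4 higher in that fit. The shares over all genes were then 14.8% and 15.7% with siTAZ #1, and 19.2% and 19.5% with siTAZ #2. COL1A2, a chain of type I collagen, fell with both siRNAs (-1.01, SE 0.14, edgeR FDR 0.0071, and -0.77, SE 0.14, FDR 0.012). COL12A1 and COL14A1 encode collagens that sit on fibril surfaces, where decorin and fibromodulin also bind. COL12A1 rose with both siRNAs (0.98, SE 0.08, FDR 0.0017, and 1.37, SE 0.08, FDR 0.00064). COL14A1 fell with siTAZ #2 from 29.7 and 19.2 CPM in siNTC to 2.94 and 5.32 (-2.57, SE 0.36, FDR 0.0049), and was at 17.7 and 16.7 CPM with siTAZ #1 (-0.51, SE 0.33, FDR 0.33). The calls of COL1A2 were lost without siNTC replicate 1 (-1.04 and -0.81, FDR 0.071 and 0.082) and without siNTC replicate 2 (-1.0 and -0.77, FDR 0.076 and 0.094), and with siTAZ #2 also without siTAZ #2 replicate 1 (-0.67, FDR 0.081).

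Growth factors and receptors that these proteoglycans bind moved in both directions. Of 10 tested, 3 were lower and 3 higher with siTAZ #1 and 4 lower and 4 higher with siTAZ #2, with medians of 0.05 and -0.12. Over all genes tested the shares were 9.78% lower and 10.8% higher with siTAZ #1, and 14.4% and 14.1% with siTAZ #2. TGFB1, for the TGF-β isoform best known as a decorin ligand, had 74.4 and 65.6 CPM in siNTC, 111 and 136 with siTAZ #1, and 305 and 312 with siTAZ #2. It rose with both siRNAs (log2 fold change 0.82, SE 0.13, edgeR FDR 0.0094, and 2.14, SE 0.13, FDR 0.00064), in the group order opposite to that of DCN. TGFB3 fell with siTAZ #2 (-1.65, SE 0.24, FDR 0.0057) and was at -0.63 with siTAZ #1 (SE 0.23, FDR 0.11). ERBB4, a receptor of the family that decorin engages, was at 1.97 and 1.39 CPM in siNTC and 0.467 and 0.121 with siTAZ #2 (-2.43, SE 0.62, FDR 0.035). WISP1, a matricellular protein gene, fell with siTAZ #1 (-1.67, SE 0.37, FDR 0.029).

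In this group TGFB1 lost its siTAZ #1 call without siNTC replicate 1 (0.90, edgeR FDR 0.062) and without siNTC replicate 2 (0.72, FDR 0.088). ERBB4 lost its siTAZ #2 call without siNTC replicate 1 (-2.18, FDR 0.15), siNTC replicate 2 (-2.68, FDR 0.098) or siTAZ #2 replicate 2 (-1.85, FDR 0.095). WISP1 lost its siTAZ #1 call without any library other than those of siTAZ #1 (-1.98 to -1.31, FDR 0.061 to 0.15). With siTAZ #2, WISP1 was at -0.29 (SE 0.36, FDR 0.59).

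Proteases cut the core proteins or trim their propeptides. Of 8 genes tested, 0 were lower and 4 higher with siTAZ #1, and 1 was lower and 4 higher with siTAZ #2. The median log2 fold change was 0.65 in both. These 8 include PCOLCE, which encodes an enhancer of procollagen processing and is not itself a protease. PCOLCE was not called (-0.26, edgeR FDR 0.28, and 0.07, FDR 0.78) and enters both medians. Among all genes tested, 9.78% were lower and 10.8% higher with siTAZ #1, and 14.4% and 14.1% with siTAZ #2. Without the genes of the region with missing counts, the lower genes of the list numbered 0 and 1, and the higher ones 4 and 4. The shares over all genes rose in that fit, to 14.8% and 15.7% with siTAZ #1 and 19.2% and 19.5% with siTAZ #2. The aggrecanases ADAMTS5 and ADAMTS4, which cut large proteoglycans such as aggrecan, rose with siTAZ #1 (2.84, SE 0.24, edgeR FDR 0.0017, and 2.44, SE 0.30, FDR 0.005). ADAMTS5 had 8.24 and 9.47 CPM in siNTC, 63.4 and 63.4 with siTAZ #1, and 7.57 and 11.8 with siTAZ #2. With siTAZ #2, ADAMTS5 and ADAMTS4 were at 0.13 (FDR 0.72) and 0.54 (FDR 0.23), and each differed between the siRNAs (2.71, FDR 0.0014, and 1.90, FDR 0.0065). MMP3, which cleaves decorin among many matrix proteins, rose with both siRNAs (2.03, SE 0.12, FDR 0.0008, and 0.77, SE 0.11, FDR 0.0058), as did the membrane protease MMP14 (1.21, SE 0.13, FDR 0.0038, and 0.89, SE 0.13, FDR 0.0064). ADAMTS1 fell with siTAZ #2 (-1.61, SE 0.13, FDR 0.00096) and was at 0.05 with siTAZ #1 (FDR 0.79).

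Among the protease calls, MMP14 lost both of its calls without siNTC replicate 1 (1.18 and 0.86, edgeR FDR 0.059 and 0.071) and without siNTC replicate 2 (1.22 and 0.89, FDR 0.057 and 0.066). MMP3 lost its siTAZ #2 call without either siNTC library (0.75, FDR 0.058 in both). The ADAMTS4 difference between the siRNAs was lost without siTAZ #2 replicate 1 (1.89, FDR 0.051) and without siTAZ #2 replicate 2 (1.92, FDR 0.053).

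Genes with a profile like that of DCN were sought by the Euclidean distance between log2 CPM values centred on each gene's mean over the 6 libraries, among 12004 genes whose mean count was 50 or more. The nearest were ANXA2P2 (distance 0.147), ENPP2 (0.169), KCTD2 (0.19) and EIF2D (0.196), where DCN itself spans 1.69 log2 units. ENPP2 encodes autotaxin, which makes lysophosphatidic acid. ANXA2P2 is a processed copy of ANXA2, so its reads may be shared with that gene. For FMOD, which spans 2.48 log2 units, the nearest genes were LOC100131564 (1.14), CDO1 (1.15), NEFM (1.18) and DDIT4L (1.18). They lie farther from FMOD than the genes named for DCN lie from DCN. These distances rest on the 2 to 24 counts of FMOD in a library.

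**Figure D5:**
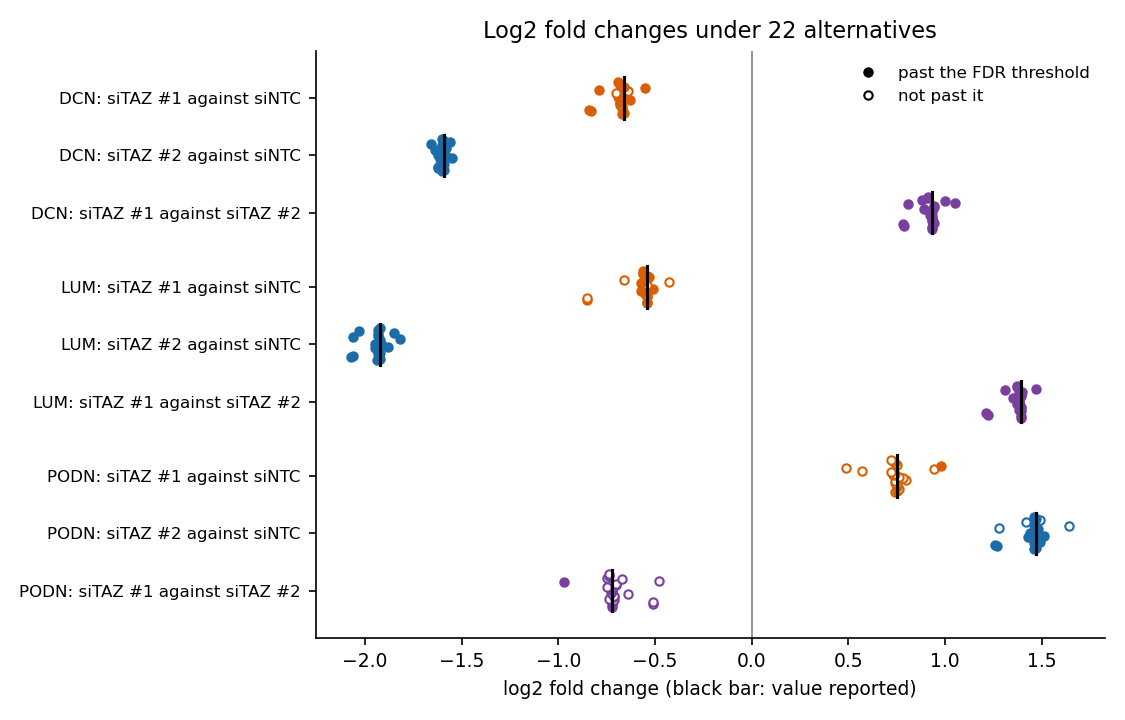
Log2 fold changes (x axis) of DCN, LUM and PODN in 3 comparisons (y axis) under 22 alternatives of the processing, 1 point each, with the reported value as a black bar. Filled points pass the FDR threshold. DCN and LUM stay filled with siTAZ #2 and between the siRNAs, and open points appear for DCN and LUM with siTAZ #1 and for PODN in all 3 comparisons.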

How the data were processed

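Total RNA of 6 HFL-1 libraries was sequenced on an Ion Proton. Reads were aligned by the authors with TMAP on hg19, and the HTSeq 0.6.1 counts of each gene were deposited without normalization. The strand setting is not given in the sources used here. Of 23368 entries, 13 with a date in place of a symbol were left out, with 0.0458% to 0.0506% of a library's counts. Libraries held 15648055 to 32078188 counts. Replicates differed by more than counting error. Their mean chi-square (1 degree of freedom) was 5.55, 23.3 and 11.9 for siNTC, siTAZ #1 and siTAZ #2 outside the region with missing counts. Such values do not show whether replicates were separate cultures.

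In R 4.3.3, counts were filtered by filterByExpr, scaled by TMM and tested by quasi-likelihood in edgeR 4.0.16, as a single model of 3 groups, with Benjamini-Hochberg adjustment. An SE is the size of the log2 fold change divided by the square root of its F statistic. Poisson intervals are exact, at 95%, and with the limits from 3 counts cover counting error only. Alternatives were DESeq2 1.42.0, edgeR's exact test, other scalings and filters, a fit of 4 libraries, a replicate block, a GC offset (GC known for 94.4% of genes), thinned libraries, an FDR of 0.1, leaving out the genes with missing counts and leaving out each library. A crossed replicate block, and the block without the genes with missing counts, were added after the data were seen.

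The members, lists and tests were chosen with earlier results of these data known. Named genes are the members, the other family genes, genes next to a member, WWTR1, genes of each list past the threshold with a log2 fold change of at least 1 in size against siNTC (at most 5 a list), and the 4 genes most like DCN and FMOD. TEK, CD68, TNMD, SOX9, CHSY1, CHST7, PCOLCE, the fibroblast markers and the smooth muscle and pericyte markers were named after their values were seen. Gene positions and lengths come from GENCODE 44 on GRCh37, for 19556 entries by symbol and 1878 by synonym, with none for 1934.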

Additional observations from a re-analysis of the deposited data

Results flagged for a closer look

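In 5 genes of the family the effects of the siRNAs differed from each other by a direct test, given as the log2 difference of siTAZ #1 minus siTAZ #2 with edgeR's FDR. Among the members, DCN differed by 0.93 (FDR 0.0027) and LUM by 1.39 (FDR 0.0013), and both were lower with siTAZ #2. Among the other family genes, ECM2 differed by -2.33 (FDR 0.039), TSKU by -0.81 (FDR 0.0087) and PODNL1 by -1.88 (FDR 0.013), all higher with siTAZ #2. The residual WWTR1 level was higher with siTAZ #2, at 46.1 and 43.1 CPM against 26.4 and 28.4 CPM. Whether this difference has a part in those of the family genes was not tested.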

How the results depend on the processing

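With 2 libraries per group, calls near the threshold depended on the setting. Of the 2 members lower with siTAZ #1, 0 were left with the exact test, 1 (DCN) with a replicate block and 1 with a GC offset and the block, and 0 to 2 when 1 library was left out. The calls over all genes dropped as well, from 9.78% lower to 3.59% with the exact test, 5.86% with the block, and 2.06% and 1.89% without a siNTC library, where 0 members were left. PODN was called higher with siTAZ #1 at an FDR of 0.1, where the share over all genes rose from 10.8% to 15.8%. Its siTAZ #2 call was lost on leaving out any 1 library of siNTC or siTAZ #2, as given above. Between the siRNAs, PODN was called lower with siTAZ #1 without RANGAP1 and the genes after it, and at an FDR of 0.1. In these settings the share of all genes called lower between the siRNAs rose from 13.4% to 18.5% and 18%. Without 1 library, the log2 fold change of PODN was 0.49 to 0.98 with siTAZ #1 and 1.28 to 1.64 with siTAZ #2. Without siNTC replicate 2, PRELP also had all siTAZ libraries above the remaining siNTC library, by 0.323 against 0.317 CPM (5 counts each). PRELP had not passed the filter. FMOD had all remaining siTAZ libraries below siNTC without siNTC replicate 2 or without siTAZ #1 replicate 2. With a library left out any gene separates more easily, and the shares over all genes in these settings are not given here.

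Deviations from the group means correlated between same-numbered libraries at -0.01 (siNTC and siTAZ #1), 0.02 (siNTC and siTAZ #2) and -0.28 (siTAZ #1 and siTAZ #2). With 2 libraries per group, the value of -0.28 means that opposite-numbered libraries of the siTAZ groups deviated alike. No label says that the replicate numbers mark a batch, and they were taken as names. The block moved LUM with siTAZ #1 over the threshold (-0.54, FDR 0.069), changed no other call of a member, and cut the calls over all genes with siTAZ #1 from 1374 lower and 1515 higher to 823 and 868. A crossed block, chosen after seeing the data, left the counts of members lower and higher as reported in all 3 comparisons. Outside the members, siTAZ #1 calls were lost not only on leaving out a library. The exact test lost those of CSGALNACT2 (FDR 0.29), DSEL (FDR 0.34), CHST2 (FDR 0.079), TGFB1 (FDR 0.089) and TSKU (FDR 0.42). Over all genes it called 3.59% lower and 4.15% higher. The block lost those of CHSY3 (edgeR FDR 0.054), TSKU (FDR 0.075) and WISP1 (FDR 0.071).

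Without 1 library, log2 fold changes that were not called turned sign for PODNL1 (-0.58 to 0.19) and ADAMTS1 (-0.07 to 0.16, with -0.01 between) with siTAZ #1, for WISP1 (-0.60 to 0.07) and ADAMTS5 (-0.25 to 0.41) with siTAZ #2, and for FMOD between the siRNAs (-0.47 to 1.99). The common dispersion was 0.0807, and 0.0164 without the genes with missing counts, where FDR values were lower (DCN with siTAZ #1 at 0.00025). Depth limits PRELP, ASPN, OGN and OMD.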
